A study of Homo sapiens with 20 samples.

Results

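Histone lysine methylation is set by writers, enzymes that add methyl groups to lysines of histones H3 and H4, and by erasers that remove them. The genes described here are those writers and erasers, with the core of the PRC2 complex and a few readers of methylated H3K9, outside the KDM4 family that the study set out to inhibit. They were taken by gene symbol from a list of 52 names. The arrays carried a named probe set for 47 of them, among 17687 genes tested, and each of the 47 had 1 probe set. KDM1A, SETD1B, EED, ASH1L and CBX5 were not analysed here.

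Total RNA of 20 cultures of Rh30 and Rh41, established alveolar rhabdomyosarcoma lines that both carry the PAX3-FOXO1 fusion, was hybridised to Clariom S arrays from 125 ng of input. Rh30 was transduced with shRNA against KDM4B or a control shRNA (2 arrays each) or given siRNA against KDM4C or a control siRNA (2 each), all for 72 h. Rh30 and Rh41 were each grown with 200 nM QC6352, a small-molecule inhibitor of the KDM4 demethylases, or with its vehicle DMSO for 48 h (3 arrays each). Neither knockdown was made in Rh41, and how many hairpins or siRNAs were used is not given in the sources used here. Values are log2 signals as deposited by the authors, and a change is the mean of the treated arrays less that of their controls on this scale. A member was called where its adjusted p, from limma with the Benjamini-Hochberg method over all genes tested, was under 0.05.

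Methyl marks differ in what they accompany. H3K4 methylation, written by the KMT2 and SETD1 enzymes and removed by the KDM1 and KDM5 families, lies at active promoters and enhancers. H3K27 methylation, written by EZH1 or EZH2 within PRC2 and removed by KDM6A and KDM6B, lies at silent developmental genes, many of them genes of muscle differentiation. H3K9 methylation, written by SUV39H, SETDB and EHMT enzymes, marks heterochromatin and is also a substrate of the KDM4 family. The JmjC erasers share an iron- and oxoglutarate-dependent catalytic domain with KDM4.

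The labels of 10 Rh30 arrays, those of the siRNA and inhibitor experiments, give different groups in the title and in the submitters' sample name. The groups here follow the titles, and results that use these arrays are given again with the groups by sample name. The title of siKDM4C 2 reads shRNA, while its source name and treatment read siKDM4C, the group used. The 4 arrays of the siRNA groups had array medians of 6.72 to 6.75, the other 10 Rh30 arrays 6.95 to 6.99 and the 6 Rh41 arrays 7.22 to 7.25, so 3 sets of arrays stood apart. The hairpin and Rh41 arrays have labels that do not conflict. KDM4B, the hairpin's target, fell by 0.94 (SE 0.23, adjusted p = 0.012). KDM4C differed by -0.23 (SE 0.19, adjusted p = 0.651) with its siRNA and did not pass the test. Of 8 muscle lineage markers, 5 fell and 0 rose with QC6352 in Rh30, 1 rose and 1 fell in Rh41, and 4 fell and 1 rose with the hairpin. MYOG, a regulator of terminal muscle differentiation, changed by -2.63 in Rh30. The summed log2 level of the 8 markers was 77.3 to 77.4 in Rh30 with DMSO and 69.5 to 70.5 with QC6352. Their part in the changes below was not tested. Of 18 markers of epithelial, blood, endothelial and fibroblast cells, EPCAM, CDH1, PTPRC, KDR, TEK and LUM had group means of 3.22 to 4.34, near the background of 3.64 to 4.01. Others were well above it, with highest group means of 8.57 for KRT8, 7.95 for PDGFRB, 7.91 for COL1A1, 7.58 for PECAM1, 7.07 for VWF and 6.74 for CD14. With QC6352 in Rh30, PECAM1 changed by -1.03, CD3E by 0.50, KRT8 by 0.46 and COL1A1 by 0.40. In Rh41 LYZ changed by 0.81, KRT18 by 0.46 and PDGFRB by 0.43. By limma 0 of the 18 were called with either knockdown, where 4 with the hairpin and 3 with the siRNA had an unadjusted p under 0.05. Between the lines with DMSO, 6 of the 18 were higher in Rh41 and 2 lower. The part of these genes in the changes below was not tested.

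Of the 47, 31 were called in 1 or more of the 4 treatment comparisons and 16 in none. The share of all genes called in 1 or more was not counted, and QC6352 in Rh30 alone called 36.3% of all genes. The 16 include both SUV39H enzymes, both EHMT enzymes and the H3K36 dimethylases NSD1 and NSD2.

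**Figure D1:**
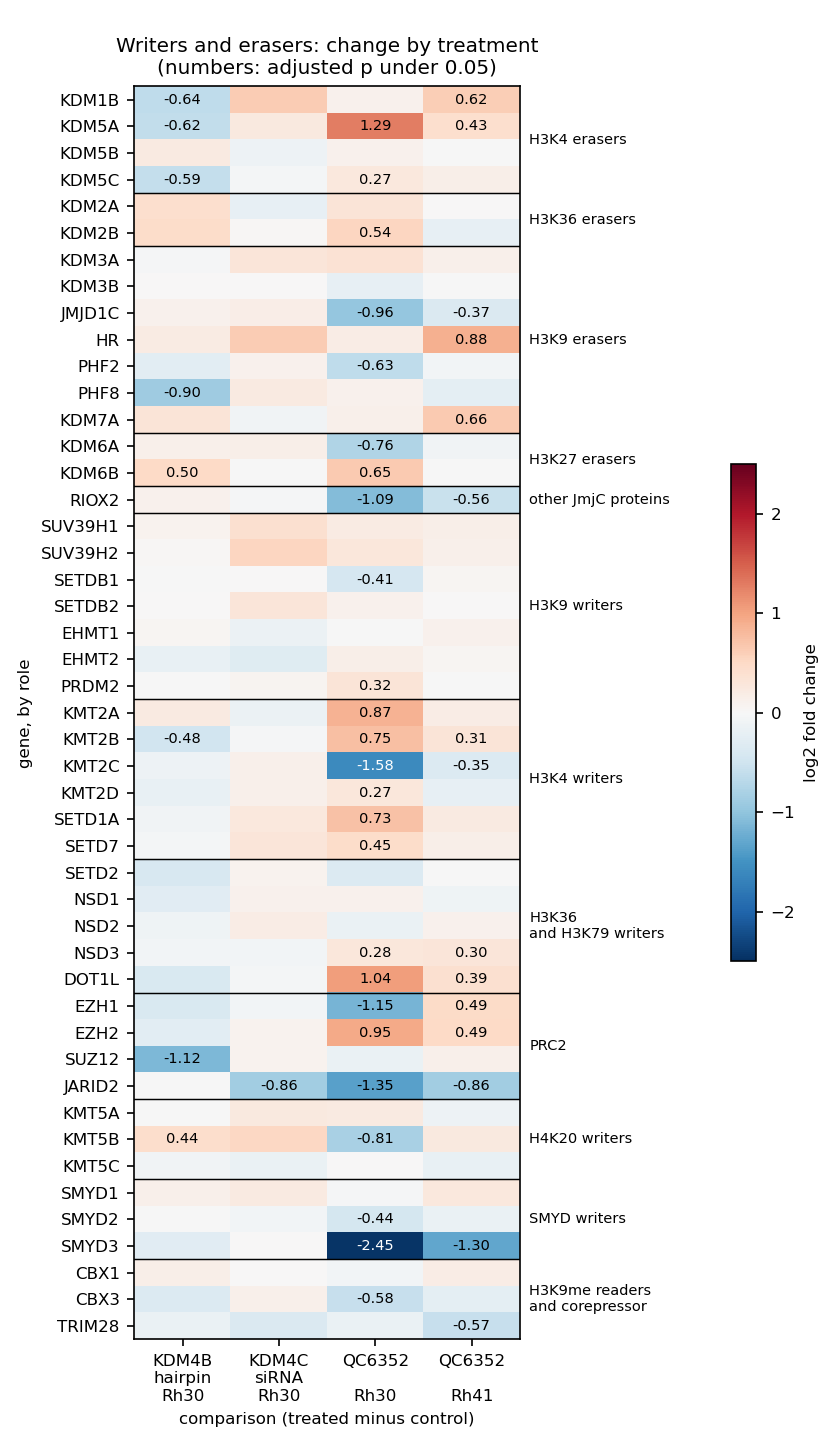
Log2 change of the 47 genes, grouped by role, in the 4 treatment comparisons; colour gives the size and direction, and a printed number means an adjusted p under 0.05. QC6352 in Rh30 has 25 numbers and the KDM4C siRNA has 1, while the JARID2 row has numbers in 3 of the 4 columns.

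With the KDM4B hairpin, 2 members rose and 6 fell, 17% of the 47. Of all genes 11.6% were called, 5.26% higher and 6.31% lower. The median change of the members was -0.03 and that of all genes 0.03. Of the 6 falls, 3 were H3K4 erasers, KDM1B, KDM5A and KDM5C, and the others were SUZ12, PHF8 and KMT2B. KDM5B, the fourth H3K4 eraser measured, was near background and at 0.22 and not called. SUZ12, a subunit that PRC2 needs for activity, fell most. The other 39 members lay between -0.40 and 0.47.

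SUZ12 read 9.98 and 10.12 in the control hairpin arrays and 8.94 and 8.92 in the KDM4B hairpin arrays. It thus stood about 1 log2 unit apart with no overlap, a fall of 1.12 (SE 0.14, adjusted p = 3.83e-05). Its catalytic partners EZH2 and EZH1, at -0.27 and -0.38, and the accessory subunit JARID2, at -0.02, were not called. PHF8, which removes H3K9me1/2 and H4K20me1, was at 7.52 and 8.04 and then 6.71 and 7.06, a fall of 0.90 (SE 0.16, adjusted p = 0.00109). SUZ12 and PHF8 were called in no other treatment.

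KDM5A, a demethylase of H3K4me3, was at 8.27 and 8.29 in the controls and 7.73 and 7.59 with the hairpin, a change of -0.62 (SE 0.11, adjusted p = 0.00106). KDM1B, the second flavin-dependent H3K4 demethylase, was at 9.11 and 9.49 against 8.59 and 8.74, a change of -0.64 (SE 0.15, adjusted p = 0.00881). Both genes had every hairpin array below every control array, as had SETD1A, which was at -0.08 and not called. KDM5C, an X-linked relative of KDM5A, was at 9.50 and 9.37 against 8.66 and 9.02, a change of -0.59 (SE 0.12, adjusted p = 0.00322). The H3K4 methyltransferase KMT2B was at 7.45 and 7.66 against 7.03 and 7.12, a change of -0.48 (SE 0.13, adjusted p = 0.0203). It was the one called writer of H3K4, so RNA of a writer and of erasers of this mark fell. The mark itself was not measured on these arrays.

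The members that rose were KDM6B and KMT5B. KDM6B, an H3K27 demethylase, was at 7.92 and 8.18 in controls and 8.51 and 8.60 with the hairpin, a change of 0.50 (SE 0.16, adjusted p = 0.0498). KMT5B, which writes H4K20me2, was at 7.86 and 7.94 against 8.22 and 8.47, a change of 0.44 (SE 0.13, adjusted p = 0.0341). Both H3K36 erasers lay above 0 without passing the test, KDM2A at 0.43 and KDM2B at 0.47.

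With 2 arrays a group, 1 array could decide a hairpin call. SUZ12, PHF8 and KDM5A were called whichever array was left out. KDM6B lost its call without any 1 of the 4 arrays (adjusted p 0.0524 to 0.299). KMT5B lost it without shControl 1 (0.165), shControl 2 (0.0764) or shKDM4B 2 (0.297), and KMT2B without shControl 2 (0.163), shKDM4B 1 (0.149) or shKDM4B 2 (0.0675). KDM1B lost it without shControl 2 (0.128) or shKDM4B 1 (0.0957), and KDM5C without shKDM4B 1 (0.0921). When these 4 arrays were fitted alone, 2 members were called, SUZ12 and KDM5A.

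With the KDM4C siRNA, JARID2 was the one member called, 2.13% of the 47 where 0.458% of all genes were called, and 10 members had an unadjusted p under 0.05, as had 13.8% of all genes. JARID2, which recruits PRC2 and belongs to the JmjC family without being an active demethylase, was at 7.60 and 7.70 with the control siRNA and 6.75 and 6.83 with the KDM4C siRNA. Both knockdown arrays were below both controls, a fall of 0.86 (SE 0.14, adjusted p = 0.00993). The call was lost without siControl 1 (0.0666), siControl 2 (0.146) or siKDM4C 2 (0.0833), when these 4 arrays were fitted alone (0.711), and with the groups by sample name (0.516). Without siKDM4C 1, 8 members were called.

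Several members lay above 0 with this siRNA short of the threshold. HR, an H3K9 demethylase known from hair follicle biology, differed by 0.64 (SE 0.16, adjusted p = 0.0766), KDM1B by 0.64 (SE 0.15, adjusted p = 0.0609) and KMT5B by 0.52 (SE 0.13, adjusted p = 0.0758). The groups of these 3 genes did not overlap, but with 2 arrays a group this also held for members near 0, such as EZH1 at -0.08. The share of all genes without overlap was not counted. The H3K9me3 writers SUV39H2 and SUV39H1 were at 0.53 and 0.40. Below 0 and also not called were the H3K9 writer EHMT2 at -0.29 and TRIM28 at -0.36. The 46 members not called ranged from -0.36 to 0.64.

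QC6352 moved writers and erasers of Rh30 in both directions. Of the 47 members, 13 rose and 12 fell, 53.2%. Of all genes 36.3% were called, 19.9% higher and 16.5% lower. The median change was 0.11 for the members and 0.05 for all genes. All 6 measured H3K4 writers, with the SMYD genes counted apart, were called, 5 of them higher and KMT2C lower. In PRC2, EZH2 rose while EZH1 and JARID2 fell, and 2 of the 3 SMYD genes fell. The 22 members not called lay between -0.35 and 0.36.

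The largest change was that of SMYD3, a methyltransferase of the cytoplasm and nucleus with histone and signalling-protein substrates. It was at 8.06, 8.12 and 8.13 with DMSO and 6.004, 5.83 and 5.13 with QC6352. The inhibitor arrays were all below every other Rh30 array, and the fall was 2.45 (SE 0.19, adjusted p = 6.1e-09), a signal 5.46-fold lower. SMYD2, a relative that methylates H3K36 and several other proteins, fell by 0.44 (SE 0.09, adjusted p = 0.000837). The muscle-specific SMYD1 was at -0.03 and not called.

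Among H3K4 writers, KMT2A, the founding member of the MLL family, was at 8.31, 8.35 and 8.33 with DMSO and 9.28, 8.99 and 9.32 with QC6352, a rise of 0.87 (SE 0.10, adjusted p = 8.84e-07). KMT2B, its closest relative, went from 7.36, 7.62 and 7.63 to 8.18, 8.32 and 8.36, a rise of 0.75 (SE 0.11, adjusted p = 1.33e-05). Arrays of the groups did not overlap for either gene. SETD1A, which writes H3K4me3 at promoters, was at 10.30, 10.19 and 10.22 against 11.02, 10.91 and 10.97, a rise of 0.73 (SE 0.10, adjusted p = 5.56e-06). SETD7, a monomethylase, rose by 0.45 and KMT2D, an enhancer monomethylase, by 0.27. KMT2C, the partner of KMT2D at enhancers, moved the other way. It was at 9.002, 8.89 and 8.79 with DMSO and 7.12, 7.30 and 7.51 with QC6352, a fall of 1.58 (SE 0.10, adjusted p = 6.33e-10), so the closest pair of H3K4 writers parted in direction.

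The erasers of H3K4 and H3K36 that passed the test all rose. KDM5A was at 8.31, 8.36 and 8.42 with DMSO and 9.47, 9.81 and 9.67 with QC6352, a rise of 1.29 (SE 0.09, adjusted p = 1.99e-09). That is a signal 2.44-fold higher and the largest rise of the 47. KDM5C rose by 0.27 and KDM2B, an H3K36 demethylase that also brings a PRC1 complex to CpG islands, by 0.54. KDM5B was near background in Rh30, between 3.68 and 4.44 in its 14 arrays.

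The H3K27 erasers changed in opposite directions. KDM6B rose by 0.65 (SE 0.13, adjusted p = 0.000515) and KDM6A, also called UTX and a partner of KMT2C and KMT2D, fell by 0.76 (SE 0.10, adjusted p = 8.4e-06). Both called H3K9 erasers fell. JMJD1C, of the KDM3 family, was at 9.70, 9.65 and 9.60 and then 8.77, 8.47 and 8.83, a fall of 0.96 (SE 0.10, adjusted p = 1.74e-07). PHF2 fell by 0.63 (SE 0.08, adjusted p = 4.1e-06). The nucleolar JmjC protein RIOX2, a ribosomal oxygenase, was at 9.43, 9.53 and 9.41 against 8.27, 8.44 and 8.41, a fall of 1.09 (SE 0.10, adjusted p = 6.04e-08).

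In PRC2 the paralogous catalytic subunits separated. EZH2, the form of dividing cells, was at 9.38, 9.21 and 9.18 with DMSO and 10.39, 10.05 and 10.19 with QC6352, a rise of 0.95 (SE 0.10, adjusted p = 3.31e-07). EZH1, the form that prevails in resting and differentiated cells, was at 8.06, 7.78 and 7.54 against 6.69, 6.68 and 6.55, a fall of 1.15 (SE 0.15, adjusted p = 4.51e-06). JARID2 was at 7.997, 8.06 and 7.95 against 6.65, 6.85 and 6.46, a fall of 1.35 (SE 0.11, adjusted p = 2e-08). Groups did not overlap for these genes. SUZ12, which fell with the hairpin, was at -0.17 and not called.

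DOT1L, the writer of H3K79 methylation, was at 8.49, 8.69 and 8.58 with DMSO and 9.63, 9.48 and 9.76 with QC6352, a rise of 1.04 (SE 0.12, adjusted p = 9.63e-07). NSD3 rose by 0.28. Of the H3K9 and H4K20 genes, PRDM2 rose by 0.32, and SETDB1 (-0.41), KMT5B (-0.81) and the HP1 protein CBX3 (-0.58) fell. SETDB1's corepressor partner TRIM28 was at -0.17 and not called.

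The Rh30 calls at the small end depended on single arrays. KDM5C lost its call without any 1 of the 6 arrays (adjusted p 0.0508 to 0.151). KMT2D lost it without DMSO 1 (0.108), DMSO 2 (0.0654), QC6352 2 (0.112) or QC6352 3 (0.0823), PRDM2 without DMSO 1 (0.0542) or QC6352 1 (0.0517), and NSD3 without DMSO 2 (0.0523). The other 21 calls held. The groups by sample name mix siRNA arrays with other Rh30 arrays. With them 0 members were called in Rh30 and 16 of the 25 changed sign. SMYD3 was then at 0.43 and KDM5A at -0.13.

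**Figure D2:**
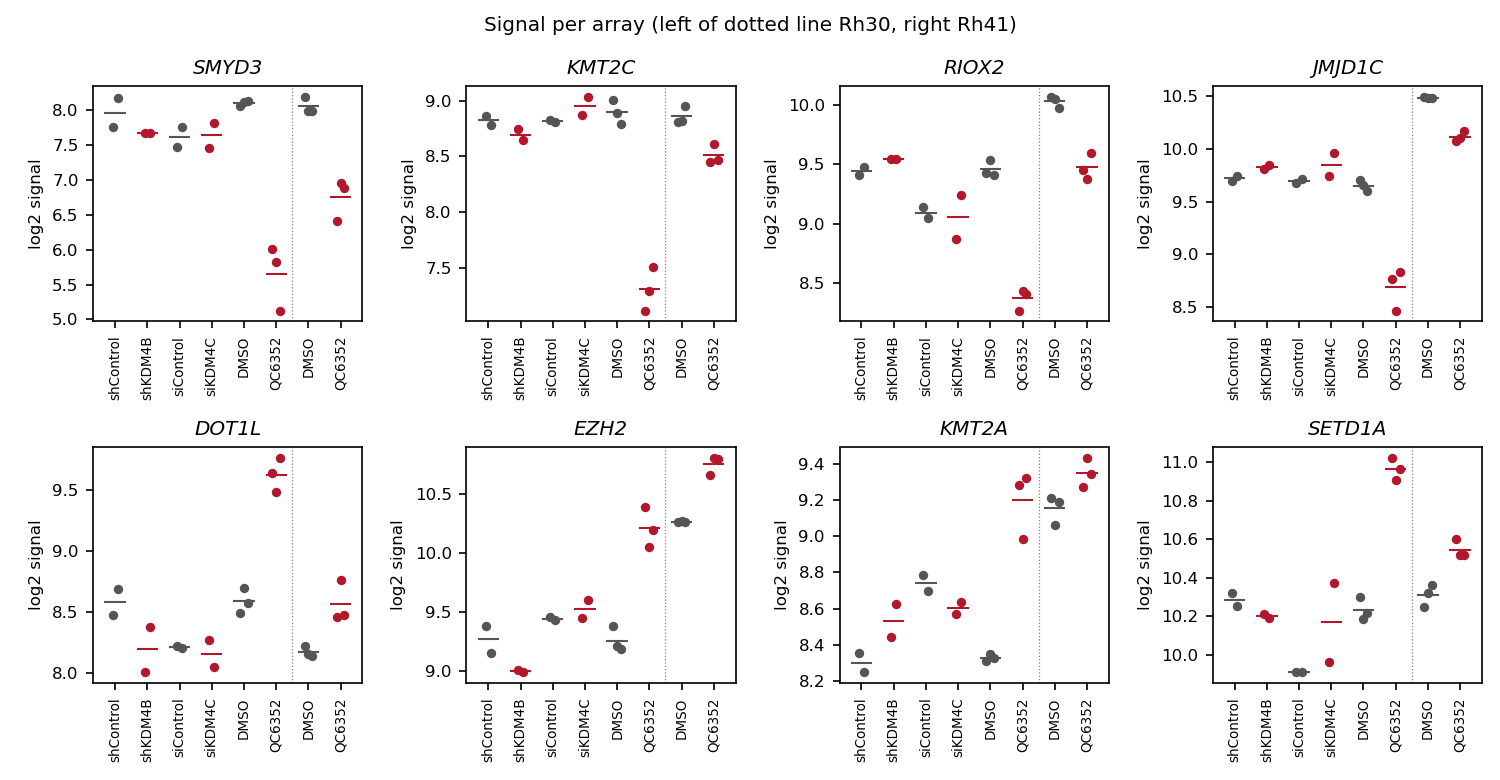
Log2 signal of 8 genes called with QC6352 in Rh30, in each of the 20 arrays; dots are arrays, bars group means, grey controls and red treated groups. In Rh30 the QC6352 dots of SMYD3, KMT2C, RIOX2 and JMJD1C lie below all other Rh30 dots, and those of DOT1L, EZH2, KMT2A and SETD1A above.

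In Rh41, whose labels do not conflict, QC6352 raised 9 members and lowered 6, 31.9% of the 47. Of all genes 19.7% were called, 10.9% higher and 8.8% lower. The median change was 0.05 for members and 0.02 for all genes. SMYD3 again fell most, and JARID2 followed. The H3K4 erasers KDM1B and KDM5A, the H3K9 erasers HR and KDM7A and both EZH genes rose. None of the 7 measured H3K9 writers was called, and they ranged from -0.01 to 0.14. All 32 members not called lay between -0.24 and 0.26.

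HR was at 6.72, 6.81 and 6.98 with DMSO and 7.73, 7.74 and 7.70 with QC6352 in Rh41, a rise of 0.88 (SE 0.13, adjusted p = 8.73e-05). KDM7A, a demethylase of H3K9 and H3K27, was at 5.30, 5.50 and 5.12 against 5.83, 6.02 and 6.07, a rise of 0.66 (SE 0.11, adjusted p = 0.000352). Both genes read above the background of 3.64 to 4.01 in all 6 Rh41 arrays. KDM1B was at 8.86, 8.54 and 8.53 against 9.23, 9.43 and 9.13, a rise of 0.62 (SE 0.12, adjusted p = 0.00134). KDM5A, at 8.17, 8.10 and 8.14 against 8.52, 8.55 and 8.63, rose by 0.43 (SE 0.09, adjusted p = 0.00216). In each of these genes every inhibitor array was above every vehicle array.

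EZH2 was at 10.26, 10.27 and 10.26 with DMSO and 10.66, 10.80 and 10.80 with QC6352, a rise of 0.49 (SE 0.10, adjusted p = 0.00157). EZH1, which fell in Rh30, was at 7.73, 7.86 and 7.81 against 8.13, 8.33 and 8.40, a rise of 0.49 (SE 0.15, adjusted p = 0.0258). JARID2 was at 9.17, 9.11 and 9.001 against 8.09, 8.36 and 8.23, a fall of 0.86 (SE 0.11, adjusted p = 2.25e-05). Both catalytic genes of PRC2 thus rose and JARID2 fell in this line. SUZ12, at 0.13, and the other accessory genes MTF2, PHF1, PHF19, AEBP2 and EPOP, at -0.35 to 0.02, were not called. RBBP4, a PRC2 partner, rose by 0.31.

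SMYD3 was at 8.19, 7.99 and 7.98 with DMSO and 6.41, 6.96 and 6.89 with QC6352, a fall of 1.30 (SE 0.19, adjusted p = 6.22e-05). TRIM28, the corepressor that brings SETDB1 to zinc finger proteins, was at 10.84, 10.90 and 10.80 against 10.19, 10.33 and 10.32, a fall of 0.57 (SE 0.12, adjusted p = 0.00276). RIOX2 was at 10.07, 10.05 and 9.97 against 9.45, 9.38 and 9.59, a fall of 0.56 (SE 0.10, adjusted p = 0.000485). None of these 3 pairs of groups overlapped. JMJD1C, at 10.50, 10.48 and 10.48 against 10.07, 10.11 and 10.17, fell by 0.37 (SE 0.10, adjusted p = 0.00943), and KMT2C, at 8.81, 8.82 and 8.95 against 8.45, 8.61 and 8.47, fell by 0.35 (SE 0.10, adjusted p = 0.0216). DOT1L rose by 0.39, KMT2B by 0.31 and NSD3 by 0.30.

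Of these 15 calls, 10 held whichever Rh41 array was left out. KMT2B lost its call without any of the 6 except QC6352 1 (adjusted p 0.0736 to 0.185), and NSD3 without DMSO 1, DMSO 2, QC6352 2 or QC6352 3 (0.0538 to 0.0711). EZH1 lost it without DMSO 1, DMSO 3, QC6352 2 or QC6352 3 (0.0625 to 0.1), DOT1L without DMSO 2, DMSO 3 or QC6352 2 (0.0697 to 0.143), and KMT2C without DMSO 3, QC6352 1 or QC6352 3 (0.0763 to 0.0973). Grouping by sample name leaves the Rh41 groups as they are and widens the shared estimate of the spread; 5 members were then called.

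Both lines shared 11 called members, 44% of the Rh30 calls and 73.3% of the Rh41 calls. Over all genes 2272 were called in both, 35.4% of the Rh30 calls and 65.3% of the Rh41 calls. KDM5A, KMT2B, NSD3, DOT1L and EZH2 were higher in both, JMJD1C, RIOX2, KMT2C, JARID2 and SMYD3 lower in both, and EZH1 opposite. The lines share no control arrays.

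**Figure D3:**
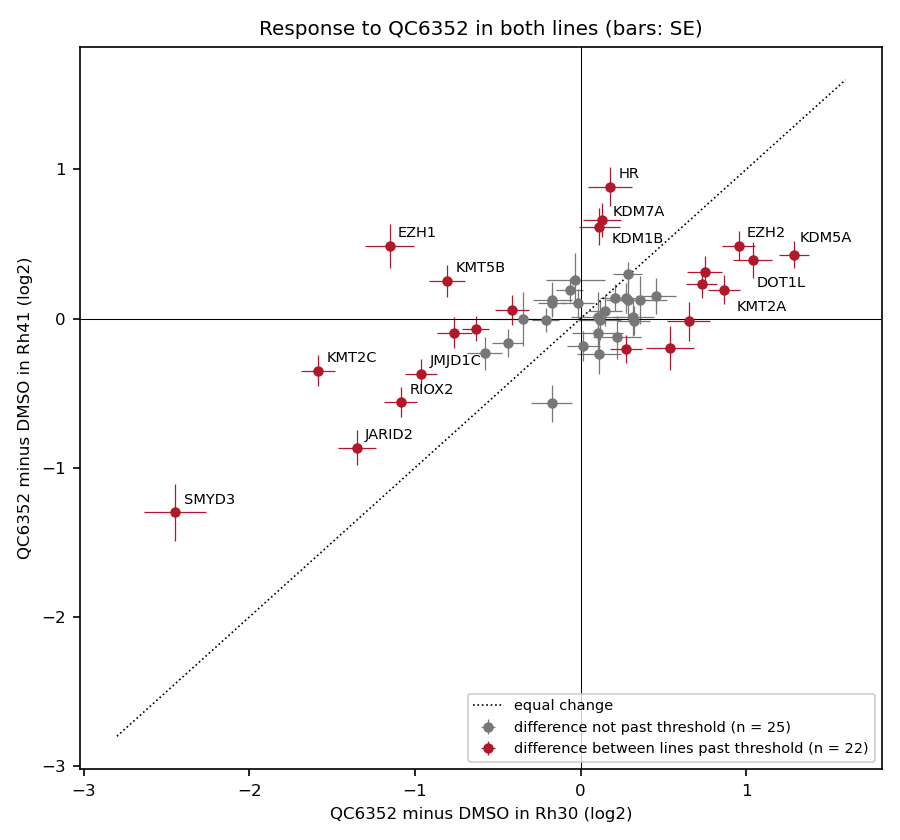
Change with QC6352 in Rh30 (x axis) and Rh41 (y axis), in log2 units with SE bars, for the 47 genes; red marks the 22 genes whose responses differed between lines. Most red points lie nearer 0 on the Rh41 axis than on the Rh30 axis, and EZH1 and KMT5B lie in the upper left, lower in Rh30 and above 0 in Rh41.

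The size of the response differed between lines for 22 members, 46.8% of the 47 against 20% of all genes, by the test of the difference itself (Rh41 minus Rh30). EZH1 differed most, by 1.64 (SE 0.21, adjusted p = 1.9e-05), with opposite calls. KMT2C differed by 1.24 (SE 0.15, adjusted p = 7.83e-06), SMYD3 by 1.15 (SE 0.27, adjusted p = 0.00441) and JARID2 by 0.49 (SE 0.16, adjusted p = 0.0398), each falling more in Rh30. KMT5B fell in Rh30 and was at 0.25 in Rh41, a difference of 1.06 (SE 0.15, adjusted p = 5.8e-05). The falls of KDM6A and PHF2 were also larger in Rh30, with differences of 0.67 and 0.57.

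The rises that both lines shared were mostly smaller in Rh41. KDM5A differed by -0.86 (SE 0.13, adjusted p = 9.59e-05), DOT1L by -0.65 (SE 0.17, adjusted p = 0.00934) and EZH2 by -0.47 (SE 0.14, adjusted p = 0.0251). KMT2A and SETD1A rose in Rh30, were not called in Rh41 and differed by -0.67 and -0.50. NSD3 rose by 0.28 in Rh30 and 0.30 in Rh41, a difference of 0.01 (SE 0.12, adjusted p = 0.964). HR, KDM7A and KDM1B responded more in Rh41, by 0.71, 0.53 and 0.50. The differences for KDM1B, JARID2, KMT2B, KDM7A, EZH2, SETDB1 and KMT2D lost their calls when single arrays were left out, with adjusted p of 0.0501 to 0.134 in those fits. With the groups by sample name 11 of the 22 reversed and 11 kept their sign without being called. The 1 member then called was SMYD3, reversed at -1.73 (adjusted p = 0.0486).

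Promoter sequences were looked at because 10 genes moved the same way in both lines. RefSeq (GRCh38.p14) gave the 250 bases before the transcription start for 42 of the 47 genes, and 14250 such stretches for all measured genes. Of the 10, DOT1L, NSD3 and RIOX2 had none, and JMJD1C, KMT2B and KMT2C had one that is not shown. The 4 shown belong to the genes that fell (SMYD3, JARID2) and rose (KDM5A, EZH2) in both lines. Capitals mark CCAAT, the box bound by NF-Y, and GGGCGG, the GC box bound by Sp1-family factors, on either strand, and each sequence runs 5′ to 3′ on the gene's strand.
SMYD3, chr1:246507280-246507529, minus strand: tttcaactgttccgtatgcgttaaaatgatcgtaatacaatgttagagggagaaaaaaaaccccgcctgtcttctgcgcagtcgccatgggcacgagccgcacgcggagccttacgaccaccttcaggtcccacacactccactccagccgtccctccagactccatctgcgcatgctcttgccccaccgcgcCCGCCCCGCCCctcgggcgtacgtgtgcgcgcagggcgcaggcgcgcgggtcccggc
JARID2, chr6:15245819-15246068, plus strand: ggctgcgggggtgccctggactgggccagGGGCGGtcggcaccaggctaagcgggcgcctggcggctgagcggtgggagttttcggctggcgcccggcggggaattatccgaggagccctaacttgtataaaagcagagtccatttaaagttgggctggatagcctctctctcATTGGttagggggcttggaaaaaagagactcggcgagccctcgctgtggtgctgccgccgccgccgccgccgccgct
KDM5A, chr12:389321-389570, minus strand: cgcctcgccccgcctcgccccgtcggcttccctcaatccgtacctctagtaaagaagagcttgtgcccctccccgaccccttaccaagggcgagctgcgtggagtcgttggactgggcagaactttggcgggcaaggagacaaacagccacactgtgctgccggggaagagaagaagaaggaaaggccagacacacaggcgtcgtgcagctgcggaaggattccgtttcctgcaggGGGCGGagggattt
EZH2, chr7:148884292-148884541, minus strand: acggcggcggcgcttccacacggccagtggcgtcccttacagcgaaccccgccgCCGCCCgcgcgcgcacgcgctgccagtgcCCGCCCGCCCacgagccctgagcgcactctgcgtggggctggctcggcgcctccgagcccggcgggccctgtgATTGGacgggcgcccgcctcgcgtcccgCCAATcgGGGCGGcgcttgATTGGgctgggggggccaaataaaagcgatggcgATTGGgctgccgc

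EZH2 held 4 CCAAT and 4 GC boxes in this window, JARID2 1 of each, SMYD3 2 GC boxes and KDM5A 1, overlapping matches counted. Over the 42 members, 28.6% held CCAAT and 73.8% the GC box, against 34.6% and 56.8% of all 14250. An E-box, CANNTG, the motif of the myogenic factors MYOD1 and MYOG, lay in 52.4% of member promoters and 57.6% of all. The E-box forms CAGCTG and CACGTG, which CANNTG includes, lay in 21.4% and 14.3% of member promoters against 13.2% and 7.67% of all. The ETS motif CCGGAAG lay in 9.52% against 11.8%, the E2F motif TTTCCCGC or TTTGGCGC in 7.14% against 2.6%, the CRE TGACGTCA in 2.38% against 2.32% and TATAAA in 4.76% against 9.09%, each searched on both strands. Member promoters were richer in CG dinucleotides, with a median of 26 against 18. Among the genes not shown, KMT2C held 15 GC boxes, KMT2B 4 and JMJD1C 1. Of the genes with a sequence, those that rose and those that fell both held GC boxes, and a match describes the sequence only.

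3 genes were called in 3 treatment comparisons and 6 in opposite directions. The shares of all genes with such calls were not counted. The levels of these members over the 8 groups follow as mean ± SD of log2 signal. Knockdown groups have n = 2 and inhibitor groups n = 3. JARID2 was at 7.94 ± 0.24 and 7.93 ± 0.13 with the control and KDM4B hairpins, at 7.65 ± 0.07 and 6.79 ± 0.05 with the control and KDM4C siRNAs, at 8.003 ± 0.06 and 6.65 ± 0.19 with DMSO and QC6352 in Rh30, and at 9.09 ± 0.09 and 8.23 ± 0.14 in Rh41. It fell with the siRNA and with the inhibitor in both lines and was at -0.02 with the hairpin.

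KDM5A was at 8.28 ± 0.01 and 7.66 ± 0.10 with the hairpins, 8.58 ± 0.01 and 8.81 ± 0.07 with the siRNAs, 8.36 ± 0.05 and 9.65 ± 0.17 with DMSO and QC6352 in Rh30, and 8.14 ± 0.03 and 8.57 ± 0.06 in Rh41. KMT2B, in the same order, was at 7.55 ± 0.15, 7.08 ± 0.07, 6.40 ± 0.17, 6.37 ± 0.04, 7.54 ± 0.15, 8.29 ± 0.10, 8.21 ± 0.05 and 8.53 ± 0.14. Both genes fell with the hairpin and rose with the inhibitor in both lines. The low KMT2B levels in the siRNA arrays lie in the set of arrays with the lowest medians. Those medians were 6.72 to 6.75, against 6.95 to 6.99 in the other Rh30 arrays, and their part in the KMT2B levels was not tested.

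KDM1B was at 9.30 ± 0.27, 8.66 ± 0.11, 9.25 ± 0.0024, 9.89 ± 0.17, 9.50 ± 0.08, 9.62 ± 0.12, 8.64 ± 0.19 and 9.26 ± 0.15. It fell with the hairpin and rose with QC6352 in Rh41, where its vehicle level was the lowest of the 4 control groups. KDM5C was at 9.43 ± 0.09, 8.84 ± 0.26, 9.54 ± 0.04, 9.49 ± 0.13, 9.36 ± 0.09, 9.63 ± 0.07, 9.77 ± 0.08 and 9.91 ± 0.03, with a hairpin fall of 0.59 and a rise of 0.27 with QC6352 in Rh30.

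KMT5B was at 7.90 ± 0.06, 8.34 ± 0.17, 7.95 ± 0.06, 8.47 ± 0.29, 7.99 ± 0.05, 7.18 ± 0.09, 9.22 ± 0.09 and 9.48 ± 0.08. It rose with the hairpin and fell with QC6352 in Rh30. EZH1 was at 7.69 ± 0.43, 7.31 ± 0.28, 7.56 ± 0.0040, 7.49 ± 0.03, 7.79 ± 0.26, 6.64 ± 0.08, 7.80 ± 0.07 and 8.29 ± 0.14, with a vehicle difference of 0.01 between the lines and opposite responses. Of the 6 members called with both the hairpin and the inhibitor in a line (KDM1B, KDM5A, KDM5C, KDM6B, KMT2B and KMT5B), 5 had opposite directions, and KDM6B was higher with both. The share of all genes with such calls was not counted. Of these 5, only KDM5A kept its hairpin call whichever array was left out. KDM1B was called with QC6352 in Rh41 and not in Rh30, the line of the hairpin. The hairpin and inhibitor comparisons use separate control arrays, and the difference between hairpin and inhibitor responses was not tested.

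**Figure D4:**
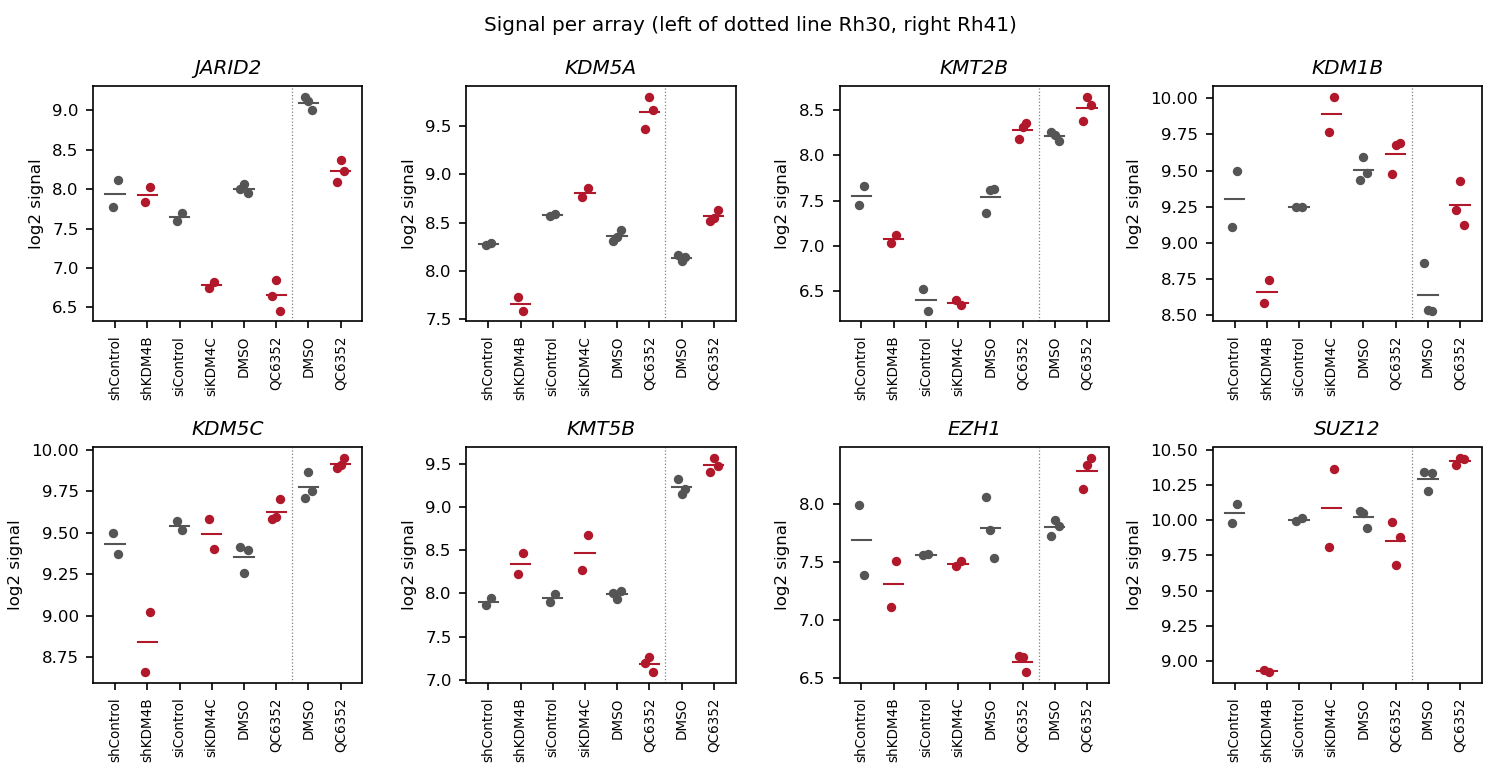
Log2 signal per array of the 7 genes called in 3 treatment comparisons or in opposite directions, and of SUZ12; dots are arrays, bars group means, grey controls and red treated groups. JARID2 is low in the siKDM4C and QC6352 groups of Rh30, while SUZ12 is low with the KDM4B hairpin.

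With vehicle alone the lines differed in most of these genes. In Rh41, 27 members were higher and 7 lower than in Rh30, 72.3% of the 47. Of all genes 57.6% were called, 40.7% higher and 16.8% lower. The whole Rh41 distribution lay higher, by 0.19 at the median gene, and the members' median was 0.42. The split depended on this shift. After centring each array on its median 20 were higher and 9 lower, and after quantile normalization 21 and 10. CBX1, KDM5C, KDM6A, KDM6B, KMT2D, KMT5C and TRIM28 were no longer called after centring, and all of these but CBX1 were no longer called after quantile normalization; no called member changed sign under either.

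KDM5B, a demethylase of H3K4me3, was the member furthest apart. It was at 9.51, 9.25 and 9.38 in Rh41 with DMSO and 3.68, 3.93 and 3.99 in Rh30, the latter at the level of the background probe sets, so that only a lower bound can be given. Against the higher of its own signal and the background in each Rh30 array, KDM5B was at least 42.7-fold higher in Rh41 on the deposited scale. This bound was not corrected for the shift of 0.19 at the median gene, which would lower it. The limma test of the deposited values gave an adjusted p of 9.81e-17, and the bound itself was not tested. NSD1, an H3K36 dimethylase, was at 9.60, 9.56 and 9.68 against 6.30, 6.13 and 6.33, a difference of 3.36 (SE 0.16, adjusted p = 1.32e-12) and 3.17 beyond the shift. Its relatives NSD2 and NSD3 differed by 0.56 and 0.61. Neither KDM5B nor NSD1 was called with QC6352 in either line.

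KDM2B was at 9.78, 9.91 and 9.77 in Rh41 and 8.02, 7.76 and 7.93 in Rh30, a difference of 1.92 (SE 0.14, adjusted p = 1.69e-09) and 1.73 beyond the shift. SMYD1, a muscle-specific SMYD gene, was at 6.90, 6.67 and 6.68 against 4.77, 4.54 and 5.32, a difference of 1.87 (SE 0.18, adjusted p = 4.17e-08) and 1.68 beyond the shift. Of the muscle lineage markers, 5 of 8 were lower in Rh41 and 1 higher. SETDB2, an H3K9 writer, was at 7.50, 7.32 and 7.36 against 6.06, 5.93 and 5.88, a difference of 1.44 (SE 0.16, adjusted p = 3.84e-07) and 1.25 beyond the shift. HR was at 6.72, 6.81 and 6.98 against 5.40, 5.66 and 5.35, a difference of 1.37 (SE 0.13, adjusted p = 5.08e-08) and 1.18 beyond the shift. All 3 H4K20 writers were called higher, KMT5B by 1.24, KMT5A by 1.15 and KMT5C by 0.31.

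SUV39H1, the H3K9 trimethylase of pericentric heterochromatin, was the main gene lower in Rh41. It was at 9.63, 9.36 and 9.45 in Rh41 and 11.12, 11.21 and 11.34 in Rh30, a difference of -1.75 (SE 0.09, adjusted p = 7.78e-12) and -1.94 beyond the shift. Its paralog SUV39H2 was at 0.06 and not called. KDM1B was at 8.86, 8.54 and 8.53 against 9.43, 9.59 and 9.48, a difference of -0.86 (SE 0.12, adjusted p = 7.68e-06) and -1.05 beyond the shift. DOT1L was at 8.22, 8.16 and 8.14 against 8.49, 8.69 and 8.58, a difference of -0.42 (SE 0.12, adjusted p = 0.00556). None of these genes had overlapping groups.

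PHF8 was at 7.31, 7.62 and 7.43 in Rh41 and 7.86, 7.81 and 7.86 in Rh30, a difference of -0.39 (SE 0.13, adjusted p = 0.0174). SMYD2 was at 9.57, 9.55 and 9.49 against 9.96, 9.81 and 9.84, a difference of -0.33 (SE 0.09, adjusted p = 0.00478). EHMT2, also called G9a, was at 9.25, 9.38 and 9.11 against 9.53, 9.57 and 9.49, a difference of -0.28 (SE 0.10, adjusted p = 0.024), and KDM5A differed by -0.23 (SE 0.09, adjusted p = 0.0413). These small differences were the less stable ones. KDM5A lost its call without any single array but Rh30 DMSO 1 (adjusted p 0.0651 to 0.122), EHMT2 without Rh30 DMSO 1, Rh30 DMSO 2, Rh41 DMSO 1 or Rh41 DMSO 3 (0.05 to 0.12) and PHF8 without Rh41 DMSO 1 (0.0812). TRIM28 lost it without any single array (0.0633 to 0.114), KDM6B without Rh30 DMSO 2 (0.0991) or Rh41 DMSO 1 (0.0533) and KMT5C without Rh41 DMSO 2 (0.0657). With the groups by sample name EHMT2 and PHF8 changed sign.

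**Figure D5:**
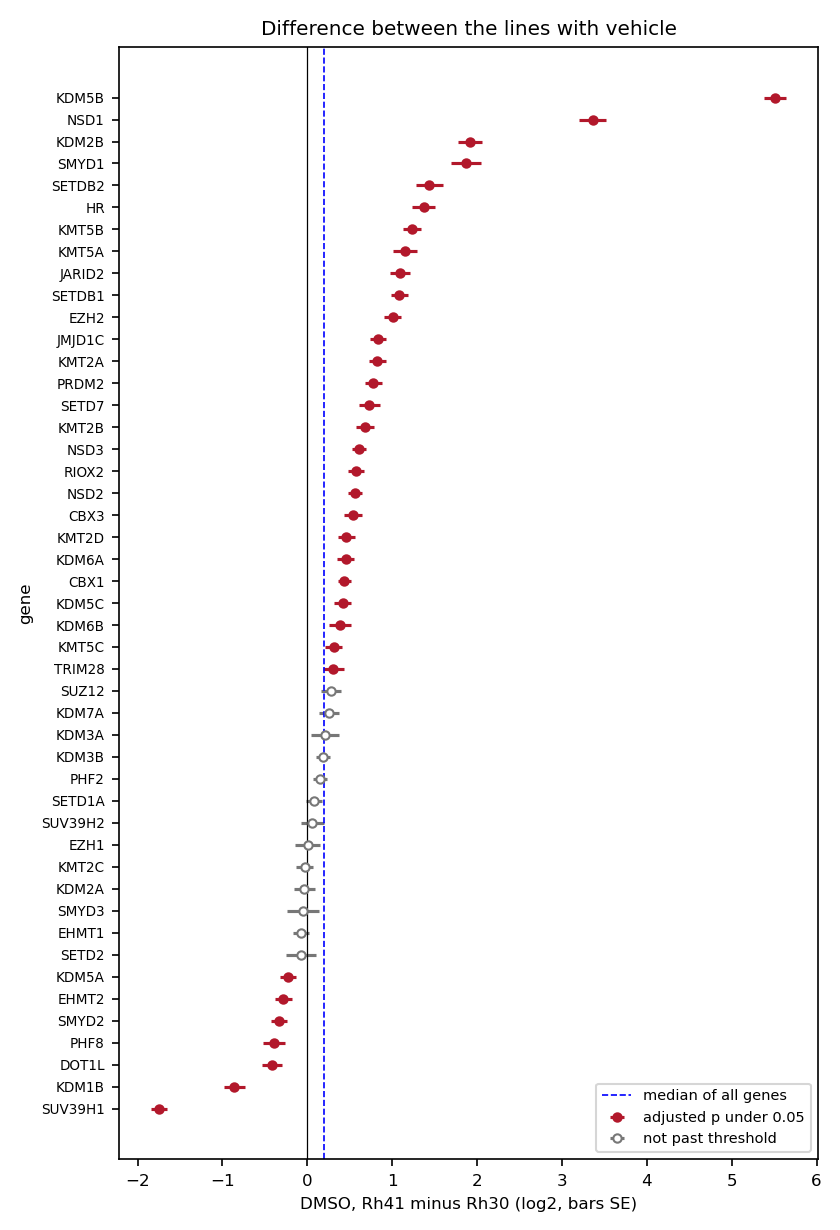
Difference between Rh41 and Rh30 with DMSO in log2 units, with SE bars, for the 47 genes in order of size; filled points passed the test and the dashed line is the median of all genes at 0.19. KDM5B, whose Rh30 level was at background, and NSD1 stand far to the right, and SUV39H1 stands alone on the left.

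Partners of these enzymes and other chromatin genes, 108 measured in 8 lists, gave counts for comparison. With the hairpin 5 rose and 8 fell, 12%, where 11.6% of all genes were called. PRDM4, a PRDM family regulator, rose most (0.71), and TASOR, a subunit of the HUSH silencing complex, fell most (-1.18). Of the 14 COMPASS partners, subunits of H3K4 writer complexes, WDR82 rose and RBBP5, PSIP1 and BOD1L1 fell. With the siRNA 0 of the 108 were called by limma, and 15 had an unadjusted p under 0.05, where 13.8% of all genes had one.

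With QC6352 in Rh30, 33 of the 108 rose and 26 fell, 54.6% against 36.3% of all genes. SNAI1, a repressor that works with the LSD1 complex, rose most (1.70), and ZNF644, a zinc finger partner of the G9a complex, fell most (-2.03). In the PRC1 list 8 of 17 rose and 4 fell. In the list of other JmjC oxygenases 5 of 9 rose and 3 fell. This list also holds PHYHD1, which is not a JmjC protein and is 1 of the 5. COMPASS partners gave 4 higher and 3 lower of 14. PRC2 partners gave 2 higher and 1 lower of 9, and SETDB1, G9a and HUSH partners 3 higher and 5 lower of 14. LSD1 complex partners gave 6 higher and 2 lower of 14, and other SET and PRDM genes 4 higher and 6 lower of 21. Arginine methyltransferases, listed with the partner WDR77, gave 1 higher and 2 lower of 10.

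In Rh41, 14 of the 108 rose and 13 fell with QC6352, 25% against 19.7% of all genes. RCOR3, a CoREST subunit, rose most (0.95), and PRDM12 fell most (-1.31). The PRC1 list had 4 higher and 3 lower of 17, and COMPASS partners 2 higher and 1 lower of 14. Other JmjC oxygenases, listed with PHYHD1, gave 1 higher and 3 lower of 9. Between the lines with vehicle, 51 of the 108 were higher in Rh41 and 18 lower, 63.9% against 57.6% of all genes; SNAI1 was furthest up (2.40) and MECOM, a PRDM family gene, furthest down (-2.28). These bulk RNA values cannot tell fewer cells of a kind from less RNA per cell.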

How the data were processed

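Values were log2 signals of 24351 probe sets on 20 arrays, used as deposited by the authors. GCOS is the tool named in the submitters' processing notes; its version, summarization and normalization are not given in the sources read here. Of the probe sets, 17709 carried 1 gene symbol and 6642 none. A gene kept its probe set with the highest mean, which left 17687 genes and dropped 22 second probe sets, 0 of them of members. Background was read from 23 control probe sets. With limma 3.58.1 under R 4.3.3, lmFit and eBayes without a trend fitted 8 group means to all arrays with 12 residual degrees of freedom, without a replicate block, and p-values were adjusted over all genes (threshold 0.05). The fit was tested on simulated data. Arrays are labelled biological replicates, so p-values measure the spread between them, and 2 or 3 arrays a group limit the precision. Members and lists were chosen with earlier results of these data known. Named genes are called members whose groups do not overlap, up to 6 each way with every array's value, plus members called in 3 comparisons or in opposite directions, and the largest change each way among other chromatin genes. Alternatives were quantile normalization, median centring, leaving out the lowest 40% of genes, trend and robust eBayes, the compared arrays alone, a replicate block, groups by sample name and leaving out each array. Leaving out the 4 siRNA arrays and crossing the siRNA numbers were added after seeing the data.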

Additional observations from a re-analysis of the deposited data

Results flagged for a closer look

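The responses of 22 members to QC6352 differed between the lines by the interaction term in limma, given here as the Rh41 minus the Rh30 change in log2 units. The difference was negative for KDM5A (-0.86), KDM2B (-0.74), KMT2A (-0.67), KDM6B (-0.67), DOT1L (-0.65), SETD1A (-0.50), KMT2D (-0.48), EZH2 (-0.47) and KMT2B (-0.44), all of which rose in Rh30. It was positive for SETDB1 (0.47), JARID2 (0.49), RIOX2 (0.53), PHF2 (0.57), JMJD1C (0.59), KDM6A (0.67), KMT5B (1.06), SMYD3 (1.15), KMT2C (1.24) and EZH1 (1.64), which fell in Rh30, and for KDM1B (0.50), KDM7A (0.53) and HR (0.71), which rose in Rh41. Among all genes 20% differed. The muscle lineage markers differed too, 6 of 8 with a positive difference, and their part in these differences was not tested.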

How the results depend on the processing

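Counts of called members kept within 1.5 times under quantile normalization, median centring and the replicate block in all 6 comparisons, and in the fit without the 4 siRNA arrays in the 5 it applies to. Fitted on the compared arrays alone, the hairpin gave 2 instead of 8 and the siRNA 0 instead of 1. The siRNA count was 4 without the lowest 40% of genes and 5 with trend and robust eBayes; the causes were not tested.

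Leaving out 1 array gave 4 to 6 members for the hairpin, 0 to 8 for the siRNA, 22 to 25 for QC6352 in Rh30, 11 to 14 in Rh41, 17 to 21 for the difference between lines and 29 to 32 for the lines with DMSO. The single differences between lines that lost their call were KDM1B without 10 of the 12 arrays, JARID2 without 9, KMT2B without 8, KDM7A without 6, EZH2 without 5, SETDB1 without 4 and KMT2D without Rh41 QC6352 1.

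The replicate numbers were not shown to pair the arrays (correlation of deviations 0.086 for the hairpin, -0.215 for the siRNA, 0.061 to 0.26 for QC6352 in Rh30 and -0.19 to -0.059 in Rh41). With the replicate block 7, 1, 24, 12, 19 and 26 members were called in the order above; crossing the siRNA numbers gave 1.

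Groups by sample name mix arrays of sets that stood apart. They gave 3 members for the hairpin, 0 for the siRNA, 0 for QC6352 in Rh30, 5 in Rh41 and 1, the reversed SMYD3, for the difference between lines. Changes with QC6352 in Rh30 that reversed were CBX3 0.0784, EZH1 0.25, EZH2 -0.0491, JARID2 0.28, JMJD1C 0.0597, KDM5A -0.13, KDM5C -0.20, KDM6A 0.15, KMT2A -0.25, KMT2C 0.14, KMT5B 0.15, PHF2 0.0055, RIOX2 0.38, SETD7 -0.0952, SMYD2 0.0769 and SMYD3 0.43. Differences between lines that reversed were DOT1L 0.22, EZH2 0.54, JARID2 -1.14, JMJD1C -0.43, KDM5A 0.56, KDM6A -0.24, KMT2A 0.45, KMT2C -0.49, PHF2 -0.0729, RIOX2 -0.94 and SMYD3 -1.73. With DMSO, EHMT2 was at 0.25 and PHF8 at 0.31. The planned use of another probe set gave no value, since no member has a second one.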
